A study of Mus musculus with 58 samples.

Results

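Genes of fatty acid use, lipolysis and their control by the PPAR receptors were followed in the extensor digitorum longus muscle (EDL), the soleus muscle (SOL) and the heart (HRT) of mice with and without a C26 tumour. The module was taken as a list of 35 genes, and a gene was measured where the array table held a probe set whose only gene symbol was that gene. By this rule 31 of the 35 genes were measured, among 18820 genes in all, on 34 probe sets. Ucp2 and Acsl1 had no such probe set, the probe set of Cpt1b was shared with Gm44502, and that of Acadvl was shared with Dvl2, so these 4 genes have no value here. Fabp3, Lipe and Hadhb had 2 probe sets each, which were averaged.

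All mice were male CD2F1 mice, a cross of BALB/c and DBA/2, kept in separate cages. Tumour-bearing mice were given C26 cells, a mouse colon adenocarcinoma line, under the skin of the right flank, and control mice a sham injection of the same salt solution. Trained mice stood on a vibrating platform for 15 min per day from the first day, at 45 Hz and an acceleration of 1 g. This is whole-body vibration (WBV). All mice were dissected at day 19. The control mice are called C without training and C + WBV with it, and the tumour-bearing mice T without training and T + WBV with it. EDL and SOL arrays came from 6 mice per group, with 5 in T + WBV, and HRT arrays came from 3 of these mice in each group. All tumours came from cells of 1 line, and each array came from 1 mouse.

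Muscle takes up fatty acids that lipoprotein lipase frees from blood lipoproteins, or frees them from its own lipid droplets, where the lipase encoded by Pnpla2 makes the first cut. The carnitine shuttle carries the activated fatty acid into the mitochondrion, and the beta-oxidation spiral then shortens it step by step and passes electrons to the respiratory chain through electron transfer flavoproteins. PPAR-alpha and PPAR-delta are receptors that bind fatty acids and switch on many of these genes, which are known to be high in the heart and in slow oxidative muscle.

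The values are log2 intensities, so that a difference of 1 is a doubling, and a level can be compared between samples of 1 gene but not between genes. A gene was called where its Benjamini-Hochberg adjusted p from limma, taken over all 18820 genes, was under 0.01. As tissue check, the mean level of slow fibre markers in C was 11.5 in SOL and 7.67 in EDL, that of fast fibre markers 12.7 in EDL, 10.7 in SOL and 4.39 in HRT, and that of cardiomyocyte markers 10.4 in HRT against 4.92 in EDL and 4.78 in SOL, as the labels have it. Neutrophil markers rose in T, with 4 of 9 called in EDL, 6 of 9 in SOL and 5 of 9 in HRT. Of all genes, 10.7%, 5.06% and 2.70% were higher in T in EDL, SOL and HRT. Since whole tissue was measured, fewer cells of a type and less RNA per cell cannot be told apart.

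Among all members, Hadh was the only gene called in the same direction in EDL, SOL and HRT of T mice, and its promoter is shown for that reason. Its call in HRT ended in 7 of 15 alternative runs. Hadh encodes the hydroxyacyl-CoA dehydrogenase of the beta-oxidation spiral for medium and short chains. The stretch is the 250 bases before the start of transcription on the minus strand, at chr3:131272102-131272351 of GRCm38.p6, from RefSeq, read in the direction of the gene. Its GC content was 59.6%, and it held none of the motifs searched, so that no base is in capitals.
Hadh: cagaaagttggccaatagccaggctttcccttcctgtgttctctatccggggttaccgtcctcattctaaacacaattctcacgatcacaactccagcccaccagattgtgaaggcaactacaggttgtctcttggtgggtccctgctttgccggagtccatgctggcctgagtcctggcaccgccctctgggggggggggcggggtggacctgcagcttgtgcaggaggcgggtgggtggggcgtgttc

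A promoter window, from 250 bases before to 50 after the start, was given for 30 of the 35 members, in 33 windows. The motifs, searched on both strands, were the PPAR/RXR direct repeat (AGGNCA, any 1 base, AGGNCA), the FoxO motif TGTTTAC, the oestrogen-related receptor motif (TCA followed by AGGTCA) and the glucocorticoid receptor motif (GNACA, any 3 bases, TGTNC). The direct repeat and the oestrogen-related receptor motif share the letters AGGTCA and can overlap. The PPAR/RXR repeat was in 0 of 33 member windows and in 0.381% of all 32851 windows, the oestrogen-related receptor motif in 0 and 0.423%, and the glucocorticoid receptor motif in 0 and 0.475%. The FoxO motif was in 1 member window, or 3.03%, beside 3.65% of all windows. It lay upstream of Lipe, which encodes hormone-sensitive lipase, and that stretch is shown with the motif in capitals. It is at chr7:25390195-25390261 of GRCm38.p6, on the minus strand, with a GC content of 49.3%.
Lipe: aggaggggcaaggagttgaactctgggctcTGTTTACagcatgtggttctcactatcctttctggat
These letters say nothing about binding, and a window without them may have other sites or sites elsewhere. The level of Lipe passed the test in no tissue of T mice, with log2 differences of 0.04 in EDL, 0.12 in SOL and 0.26 in HRT.

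In healthy mice the module followed the tissues. In C, 19 of 31 members were higher in SOL than in EDL and 0 were lower, beside 7.49% of all genes higher and 6.44% lower. In HRT 23 were higher than in EDL and 0 lower (19.0% and 12.9% of all genes), and 12 were higher than in SOL and 0 lower (15.4% and 9.59%). The median log2 difference over the members was 0.66 for SOL against EDL, 1.13 for HRT against EDL and 0.50 for HRT against SOL.

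Between SOL and EDL the 3 largest calls were Fabp3, the fatty acid binding protein of the muscle cell, Plin5, a coat protein that ties lipid droplets to mitochondria, and Cd36, a fatty acid transporter. Fabp3 was 1.01 higher in SOL (SE 0.17, adjusted p = 6.01e-06), Plin5 1.01 (SE 0.22, adjusted p = 0.000518) and Cd36 0.98 (SE 0.12, adjusted p = 3.42e-09). In HRT against EDL the leading genes were Plin5 at 1.84 (SE 0.28), Cpt1a, a carnitine palmitoyltransferase of the outer mitochondrial membrane, at 1.78 (SE 0.25), and Hadhb, the thiolase subunit of the trifunctional protein, at 1.61 (SE 0.21). In HRT against SOL they were Cpt1a at 1.06 (SE 0.25, adjusted p = 0.000527), the short-chain dehydrogenase Acads at 0.89 (SE 0.20, adjusted p = 0.000373) and Etfdh, which hands electrons on to ubiquinone, at 0.88 (SE 0.19, adjusted p = 0.000111).

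All 8 measured genes of the spiral, all 4 auxiliary enzymes, all 3 electron transfer flavoprotein genes and all 3 uptake genes were higher in HRT than in EDL. The 8 members not called there were Ppard, Pdk4, Angptl4, Ucp3, Pnpla2, Lipe, Plin2 and Mlycd. They include 3 of the 4 lipolysis and droplet genes and all 3 measured genes of the fuel switch and uncoupling group. Ucp3, an uncoupling protein of muscle mitochondria, had an estimate of -1.49 for HRT against EDL, which did not pass.

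**Figure D1:**
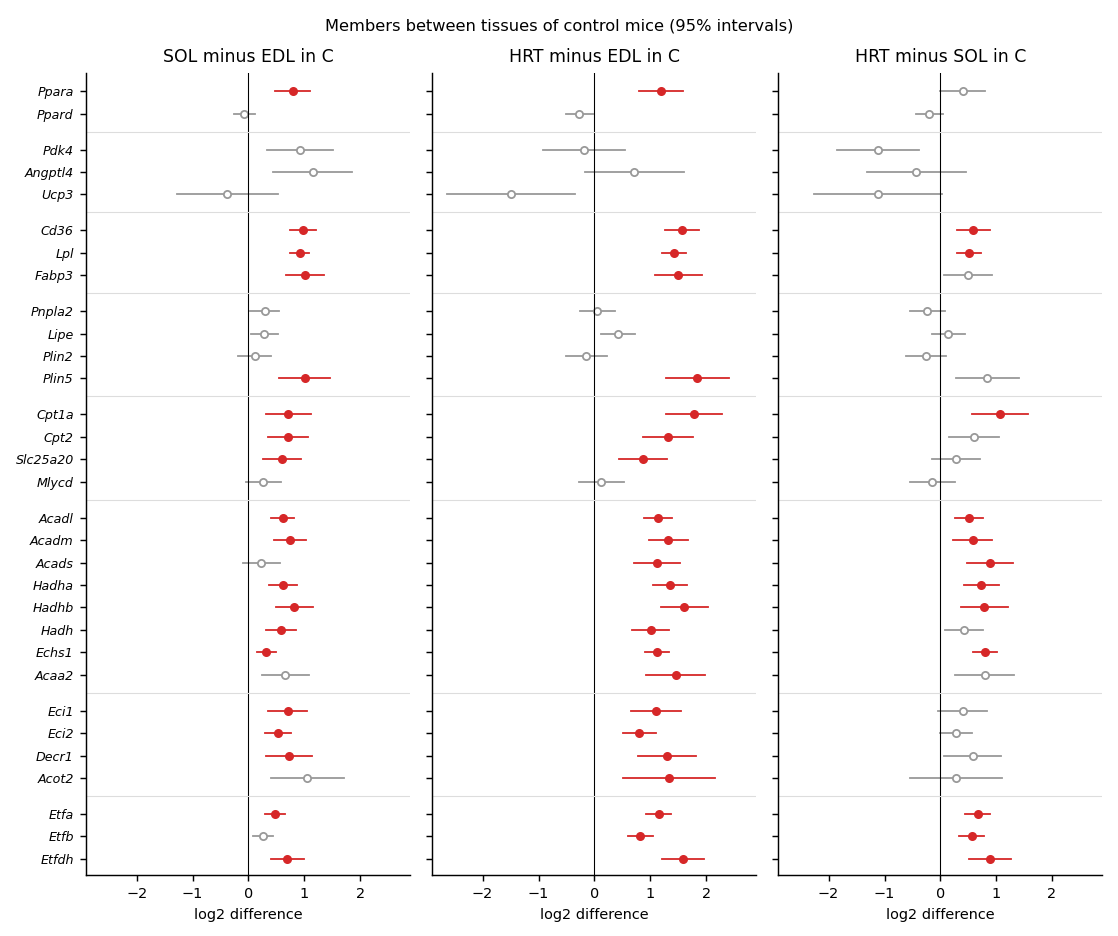
Differences between tissues in control mice for the 31 measured members, as log2 differences on the horizontal axis with 95% intervals from limma, in 3 panels for SOL minus EDL, HRT minus EDL and HRT minus SOL. Filled points passed the test, 19, 23 and 12 of them, and all of these lie to the right of 0.

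With the tumour, members were called in both directions in EDL. Of 31 members, 8 (25.8%) were higher in T than in C, beside 10.7% of all genes. Lower were 4 (12.9%), beside 11.6% of all genes, so that the share called lower was near that of all genes. The 8 higher members were the lipase and droplet genes Pnpla2 and Plin5, the uptake genes Cd36 and Lpl, the receptor gene Ppard, Mlycd, which removes malonyl-CoA, and Echs1 and Eci2, a hydratase and an isomerase of fatty acid breakdown. The 4 lower members were Acaa2, Acads and Hadh of the spiral and Etfb, a subunit of the electron transfer flavoprotein. The median log2 difference was -0.02 over the members and -0.03 over all genes.

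In SOL 1 member was higher (5.06% of all genes) and 5 were lower (8.66%), and in HRT 1 was higher (2.70%) and 4 were lower (3.04%). The median log2 difference over the members was -0.45 in SOL and -0.28 in HRT, beside -0.01 and 0.00 over all genes. Estimates were below 0 for 16 of 31 members in EDL, 21 in SOL and 25 in HRT. Of all 18820 genes, 10323, 9675 and 9252 had an estimate below 0 in EDL, SOL and HRT. No member was called in opposite directions in different tissues, and 15 of 31 members were called in none.

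**Figure D2:**
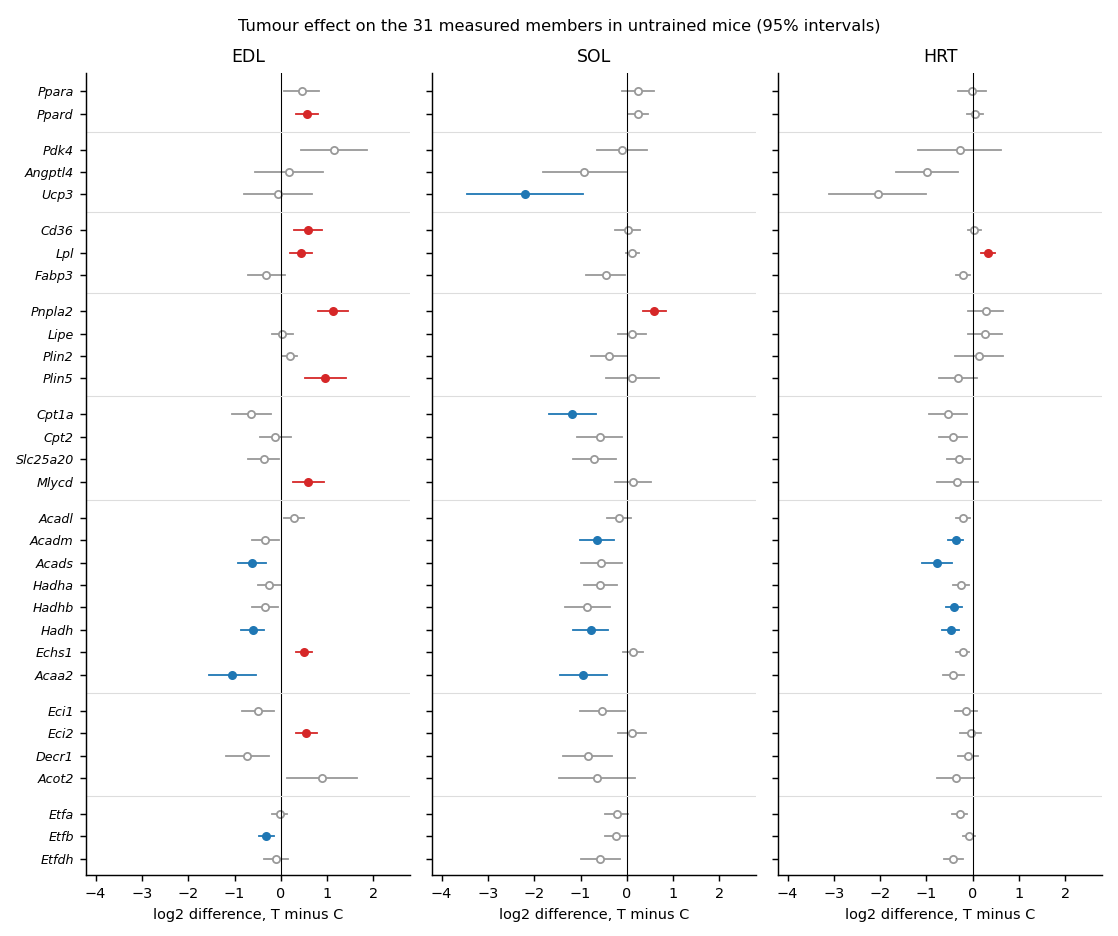
Log2 difference of T against C for each of the 31 members, ordered by role, in EDL, SOL and HRT, with 95% intervals from limma. Filled points passed the test, namely 8 rises and 4 falls in EDL, 1 rise and 5 falls in SOL, and 1 rise and 4 falls in HRT, and open points did not.

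Pnpla2 encodes adipose triglyceride lipase, which starts the breakdown of stored triglyceride. In EDL its level ran from 9.94 over a median of 10.16 to 10.21 in C, and from 10.60 over 11.39 to 11.47 in T. Every T muscle was above every C muscle, and the difference was 1.12, or 2.18-fold (SE 0.15, adjusted p = 8.89e-06, n = 6 and 6, limma). In SOL the levels were 10.29, 10.41 and 10.60 in C and 10.80, 11.00 and 11.31 in T for lowest, median and highest. These groups did not overlap either, and the difference was 0.60, or 1.51-fold (SE 0.12, adjusted p = 0.000604). In HRT, the C arrays read 10.02, 10.18 and 10.29 and the T arrays 10.11, 10.39 and 10.83, which overlapped, and the difference of 0.27 did not pass (SE 0.17, adjusted p = 0.356).

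Plin5 rose in EDL only by the test, from 6.80, 6.92 and 7.02 in C to 7.39, 7.96 and 8.32 in T, with no overlap and a difference of 0.96 (SE 0.22, adjusted p = 0.00126). In SOL its estimate was 0.12 and in HRT -0.32, neither past the threshold. The other droplet coat gene among the members, Plin2, had estimates of 0.19 in EDL, -0.39 in SOL and 0.14 in HRT and was called in no tissue. Of the 4 lipolysis and droplet members, 2 were higher in EDL, 1 in SOL and 0 in HRT, beside 10.7%, 5.06% and 2.70% of all genes.

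Of the genes that work with these enzymes, in a list of 20 with 19 measured, 5 rose and 7 fell in EDL, 3 rose and 6 fell in SOL, and 1 rose and 1 fell in HRT. Plin4, another droplet coat gene, rose by 1.37 in EDL (SE 0.18) and 0.64 in SOL (SE 0.15), and Plin3 by 0.90, 0.70 and 0.80 in EDL, SOL and HRT. Levels of G0s2, an inhibitor of the Pnpla2 lipase, fell by 1.58 in EDL (SE 0.29, adjusted p = 0.000136) and by 1.63 in SOL (SE 0.39, adjusted p = 0.0033). Abhd5, its co-activator, fell by 0.38 and 0.33 in the same muscles, a gene chosen after its values were seen. Gpam, which starts triglyceride synthesis, fell by 1.82 in EDL and 1.70 in SOL, and Mgll, which cuts the last fatty acid from glycerol, fell by 0.75 in HRT.

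Among the uptake members, Cd36 rose in EDL from 10.09, 10.24 and 10.43 in C to 10.35, 10.85 and 11.18 in T, a difference of 0.59 with overlapping groups (SE 0.14, adjusted p = 0.00233). Its estimates were 0.02 in SOL and 0.04 in HRT. Lpl, the lipoprotein lipase, rose by 0.43 in EDL (SE 0.12, adjusted p = 0.00524) and by 0.33 in HRT. The HRT arrays of Lpl read 12.30, 12.38 and 12.39 in C and 12.62, 12.68 and 12.76 in T, with no overlap (SE 0.07, adjusted p = 0.007, limma). The call in HRT ended without any 1 of the 6 hearts, at an adjusted p of up to 0.0362, and also in the fit of all arrays (0.159), and that in EDL ended without C replicate 2, 3, 5 or 6 or T replicate 1, 4 or 5, at up to 0.0169. Fabp3 was called in no tissue, with estimates of -0.32, -0.45 and -0.21 in EDL, SOL and HRT.

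Cd36 is also made by capillary, fat and immune cells, and Lpl by fat and immune cells. Of 12 macrophage markers, 5 were higher in EDL, 0 in SOL and 6 in HRT, and their mean level over the list ran from 4.95 to 5.40 in C and from 5.30 to 6.04 in T in EDL, and from 6.64 to 7.18 in C and from 7.50 to 7.71 in T in HRT. Of 12 endothelial markers, 4 rose and 1 fell in EDL, 2 rose and 1 fell in SOL, and 2 rose and 2 fell in HRT, and their mean level in EDL ran from 7.54 to 7.72 in C and from 7.61 to 7.94 in T. The part of these cells in the result was not tested. None of the 9 measured adipocyte markers, of 12 listed, was called in any tissue, and their mean level ran from 4.53 to 5.31 in C and from 4.52 to 5.06 in T in EDL. For SOL these ranges were 5.46 to 6.74 and 5.38 to 6.07, and for HRT 6.09 to 7.04 and 5.86 to 6.07.

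In the wider list of uptake and activation genes, 16 of 19 were measured, of which 2 rose and 2 fell in EDL, 1 rose and 3 fell in SOL, and 1 rose and 4 fell in HRT. For EDL the list had 12.5% of its genes higher and 12.5% lower, close to the 10.7% and 11.6% of all genes. Its SOL shares were 6.25% higher and 18.8% lower, against 5.06% and 8.66% of all genes. Those for HRT were 6.25% higher and 25% lower, against 2.70% and 3.04%. Falls thus outnumbered rises in SOL and HRT, although only rises are named here. Apoe, a lipoprotein component, rose by 0.59 in EDL and 0.84 in HRT. Vldlr, a receptor for lipoproteins, rose by 0.49 in EDL, and Gpihbp1, which anchors lipoprotein lipase to the capillary wall, by 0.63 in SOL.

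The carnitine shuttle gene Cpt1a fell in SOL. Its level ran over 6.70, 7.17 and 7.49 in C and over 5.38, 5.89 and 6.81 in T, so that the groups overlapped at their edges, and the difference was -1.17, or 2.26-fold lower (SE 0.25, adjusted p = 0.0012). The estimates were -0.63 in EDL (adjusted p = 0.0175) and -0.53 in HRT (adjusted p = 0.0858). Cpt2 and Slc25a20, the inner membrane enzyme and carrier of the shuttle, had estimates between -0.71 and -0.12 over the tissues and were called in none. Mlycd, whose product lifts the block of malonyl-CoA on the shuttle, went from 6.99, 7.21 and 7.45 in C to 7.48, 7.73 and 8.28 in T in EDL, a rise of 0.59 (SE 0.16, adjusted p = 0.00559) whose call ended without C replicate 3, 5 or 6 or T replicate 1 or 4, at an adjusted p of up to 0.0204. Acacb, the mitochondrial enzyme that makes malonyl-CoA, rose by 0.86 in EDL as well and had estimates of 0.05 in SOL and 0.21 in HRT.

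Within the beta-oxidation spiral, 3 of 8 measured genes were lower and 1 was higher in EDL, 3 were lower in SOL and 4 were lower in HRT, beside 11.6% of all genes lower and 10.7% higher in EDL, 8.66% lower in SOL and 3.04% lower in HRT. Hadh ran over 10.58, 10.75 and 10.84 in C and over 9.62, 10.13 and 10.61 in T in EDL, a difference of -0.61 with a slight overlap (SE 0.12, adjusted p = 0.000388). In SOL it ran over 11.24, 11.32 and 11.41 in C and over 9.79, 10.59 and 11.16 in T, a difference of -0.78 without overlap (SE 0.18, adjusted p = 0.00258). In HRT the arrays read 11.71, 11.73 and 11.78 in C and 11.15, 11.20 and 11.45 in T, again apart, with a difference of -0.48 (SE 0.09, adjusted p = 0.00332). The call in HRT ended without any 1 C heart or T heart 2 or 3, at an adjusted p of up to 0.184 over the alternatives. It also ended without a trend in the variance prior and in the fit of all arrays. Hadh was thus 1.52-fold, 1.72-fold and 1.39-fold lower in T in EDL, SOL and HRT.

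Acaa2, the thiolase that closes a round of the spiral, had the largest fall of the called members in EDL. Its levels were 9.83, 10.15 and 10.26 in C and 7.77, 9.22 and 10.08 in T, a difference of -1.05, or 2.07-fold lower (SE 0.25, adjusted p = 0.00165). In SOL the levels were 10.69, 10.76 and 10.88 in C and 8.73, 9.84 and 10.66 in T, a difference of -0.94 (SE 0.25, adjusted p = 0.00667), whose call ended without any 1 C muscle or without T replicate 2, 5 or 6 at an adjusted p of up to 0.0213. Every SOL of T lay below every SOL of C, while in EDL the highest T value lay within the C range. The estimate in HRT was -0.42 (adjusted p = 0.0178), which did not pass although the groups did not overlap.

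The acyl-CoA dehydrogenases open each round, and none of them passed the test of a difference between tissues in the tumour effect. Acads, for short chains, fell by 0.62 in EDL (SE 0.14, adjusted p = 0.0013), had an estimate of -0.56 in SOL (adjusted p = 0.066), and fell by 0.78 in HRT, where C read 8.98, 8.99 and 9.06 and T read 8.01, 8.05 and 8.62. Acadm, for medium chains, had an estimate of -0.34 in EDL (adjusted p = 0.071), fell by 0.64 in SOL (SE 0.18, adjusted p = 0.00944), and fell by 0.37 in HRT, where C read 11.87, 11.88 and 11.90 and T read 11.42, 11.44 and 11.69. Acadl, for long chains, had estimates of 0.28 in EDL, -0.16 in SOL and -0.21 in HRT and was called in none. The call of Acadm in SOL ended without C replicate 1, 2, 3, 4 or 6 or T replicate 1, 2, 5 or 6, with a covariate for the suffix of the description, without a trend in the variance prior, with the replicate number as a block and with only the groups compared, at an adjusted p of up to 0.0303. In HRT neither Acads nor Acadm had overlapping groups. Hadhb fell in HRT by 0.41 (SE 0.08, adjusted p = 0.0048), from 11.85, 11.88 and 11.88 to 11.36, 11.38 and 11.66, and its partner subunit gene Hadha had an estimate of -0.25 (adjusted p = 0.0494). In SOL the estimates of the pair were -0.85 for Hadhb (adjusted p = 0.0105) and -0.58 for Hadha, and in EDL -0.34 and -0.26, none of them called. The HRT calls of Acads, Acadm and Hadhb ended without any 1 C heart or T heart 2 or 3. They also ended without a trend in the variance prior and in the fit of all arrays. That of Acadm ended after a second quantile normalization too. The adjusted p ran up to 0.0457 for Acads, 0.356 for Acadm and 0.45 for Hadhb.

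Echs1, the enoyl-CoA hydratase of the spiral, went the other way in EDL. It ran over 9.19, 9.38 and 9.45 in C and over 9.74, 9.87 and 9.96 in T, a rise of 0.49 without overlap (SE 0.08, adjusted p = 6.05e-05). In SOL its estimate was 0.13 and in HRT -0.22 (adjusted p = 0.0345). Eci2, an isomerase for unsaturated fatty acids, rose in EDL from 8.43, 8.67 and 8.84 to 8.93, 9.14 and 9.52, by 0.55 (SE 0.11, adjusted p = 0.000437), also without overlap. The other auxiliary genes Eci1, Decr1 and Acot2 were called in no tissue. The estimates for Eci1, another isomerase gene, were -0.49, -0.53 and -0.15 in EDL, SOL and HRT, and those for Decr1, a reductase for unsaturated fatty acids, -0.72, -0.84 and -0.11. Etfa, which encodes the partner subunit of Etfb, had -0.02, -0.22 and -0.29, Etfdh had -0.11, -0.58 and -0.42, and of the electron transfer flavoprotein genes only Etfb was, with a fall of 0.31 in EDL (SE 0.08, adjusted p = 0.00416) that was no longer called without C replicate 4 or 6 or T replicate 2 or 5.

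Leaving out any 1 C heart, or T heart 2 or 3, left 0 members called in HRT, and leaving out T heart 1 gave 11, all of them lower. A fit of all arrays with the mouse as a random block also called 0 in HRT. Over all members, every T array was above every C array for 6 members in EDL, 1 in SOL and 2 in HRT, beside 7.05%, 3.96% and 15.7% of all genes. Every T array was below for 0, 3 and 14 members, beside 8.39%, 6.68% and 16.3%. The 14 members in HRT were Angptl4, Ucp3, Fabp3, Slc25a20, Acadl, Acadm, Acads, Hadha, Hadhb, Hadh, Echs1, Acaa2, Etfa and Etfdh.

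**Figure D3:**
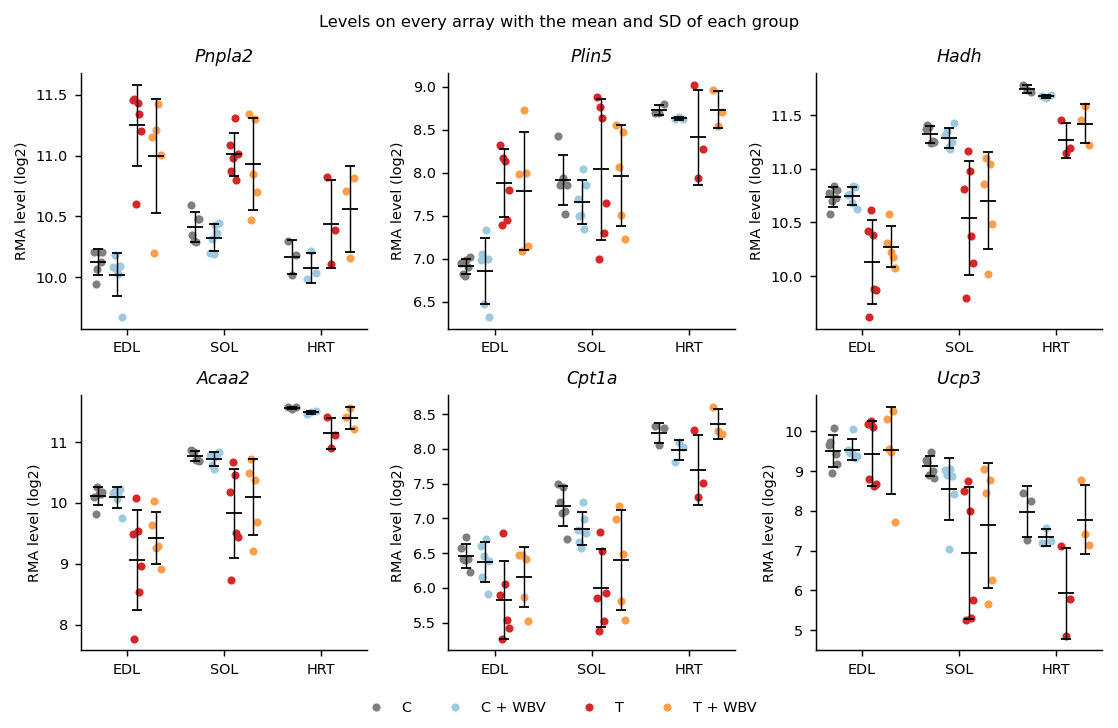
Log2 level of Pnpla2, Plin5, Hadh, Acaa2, Cpt1a and Ucp3 on every array of EDL, SOL and HRT in the 4 groups, with the group mean and SD. T arrays of Pnpla2 sit above the C arrays in EDL and SOL, those of Hadh sit below them in SOL and HRT and overlap them at the edge in EDL, and those of Ucp3 in SOL spread from 5.25 to 8.76 beside 8.84 to 9.49 in C.

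The receptor gene Ppard rose in EDL, from 7.53, 7.75 and 7.85 in C to 7.69, 8.40 and 8.56 in T, a difference of 0.56 (SE 0.12, adjusted p = 0.000555) with 1 T muscle inside the C range. Its estimates in SOL and HRT were 0.25 (adjusted p = 0.105) and 0.05 (adjusted p = 0.768). Ppara had estimates of 0.45 in EDL (adjusted p = 0.0732), 0.24 in SOL (adjusted p = 0.368) and -0.01 in HRT (adjusted p = 0.984), with a 95% interval from -0.31 to 0.30 in HRT.

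In a list of 24 co-regulators and other PPAR targets, of which 22 were measured, 4 rose and 7 fell in EDL, 2 rose and 3 fell in SOL, and 1 rose in HRT. Klf15, a glucocorticoid-induced factor, rose by 1.55, 1.14 and 0.88 in EDL, SOL and HRT. Ppargc1b, a co-activator of mitochondrial genes, fell by 1.52 in EDL and 1.71 in SOL, and Rxrg, a partner receptor of the PPARs, fell by 1.80 in EDL.

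Pdk4, Angptl4 and Ucp3 are well known as PPAR targets in muscle. The SD of Ucp3 was higher in T than in C in each tissue, at 0.82 against 0.41 in EDL, 1.66 against 0.25 in SOL and 1.14 against 0.63 in HRT. That of Pdk4 was higher in SOL and HRT but lower in EDL, at 0.44 in T and 0.85 in C, and that of Angptl4 was higher in EDL and SOL but lower in HRT, at 0.12 and 0.41. Pdk4 encodes the kinase that shuts pyruvate dehydrogenase and so spares glucose. In EDL it ran over 9.67, 11.20 and 11.79 in C and over 11.54, 12.11 and 12.63 in T, a difference of 1.15 that missed the threshold (SE 0.35, adjusted p = 0.0123). In SOL its estimate was -0.10 and in HRT -0.28. Angptl4, a secreted inhibitor of lipoprotein lipase, had estimates of 0.18 in EDL, -0.92 in SOL and -0.99 in HRT (adjusted p = 0.051). Its HRT arrays read 5.35, 5.72 and 6.18 in C and 4.64, 4.76 and 4.88 in T, with no overlap.

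Ucp3 fell in SOL by 2.19, or 4.58-fold, the largest change of any called member (SE 0.61, adjusted p = 0.00995). The C muscles ran over 8.84, 9.12 and 9.49. T replicates 1, 3 and 4 read 8.50, 8.76 and 8.01, and T replicates 2, 5 and 6 read 5.25, 5.31 and 5.77, all below that range. In HRT Ucp3 read 7.26, 8.25 and 8.44 in C and 4.86, 5.79 and 7.13 in T, an estimate of -2.06 that missed the threshold (SE 0.49, adjusted p = 0.0131). In EDL the estimate was -0.07, with T muscles from 8.62 to 10.26 around the C range of 8.94 to 10.09. The call in SOL ended, at an adjusted p of up to 0.0348, without any 1 of the C muscles or without T replicate 2, 5 or 6. It also ended with a covariate for the suffix of the description, without a trend in the variance prior and after a second quantile normalization within the tissue.

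Among the T mice, those with more Ucp3 and Acot2 in SOL also had more in EDL. In EDL, T replicates 1, 3 and 4 read 10.17, 10.26 and 10.11 for Ucp3, and T replicates 2, 5 and 6 read 8.79, 8.62 and 8.66. Acot2, a mitochondrial thioesterase and PPAR target that may share probes with its near copy Acot1, had 11.51, 11.98 and 11.98 in SOL of T replicates 1, 3 and 4 and 9.47, 9.74 and 9.75 in replicates 2, 5 and 6. In EDL the same replicates had 12.32, 11.66 and 12.32 against 9.92, 10.39 and 10.70, while the C muscles ran from 10.09 to 10.59. The estimate for Acot2 was 0.89 in EDL and -0.65 in SOL, neither called. Pdk4 in SOL read 12.11, 12.44 and 12.19 in T replicates 1, 3 and 4 and 11.36, 11.35 and 11.32 in replicates 2, 5 and 6, against 11.57 to 12.20 in C. These replicates were listed by their values for Ucp3 in SOL, so their order in that gene is a description and they are not groups of the study.

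In T + WBV, replicates 1 and 4 read 9.06 and 8.79 for Ucp3 in SOL and replicates 3 and 5 read 5.65 and 6.25, while replicate 2 read 8.44. In EDL the 5 mice read, from replicate 1 to 5, 10.31, 9.56, 9.49, 10.51 and 7.72, so that replicate 3, low in SOL, was within the C range in EDL. For Acot2 in SOL these 5 mice read, from replicate 1 to 5, 12.07, 11.35, 10.27, 12.21 and 10.42, and in EDL 12.10, 10.32, 11.17, 12.49 and 10.34, where replicate 3 was above the C range. Replicate 3 had the highest value of the T + WBV mice for 12 members in EDL and the lowest for 21 in SOL. Replicate 2, which had kept 100.9% of its starting body mass, was close to the C range in both genes. The hearts of T replicates 1, 2 and 3 came from the mice of muscle replicates 4, 5 and 6, and read 7.13, 4.86 and 5.79 for Ucp3.

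**Figure D4:**
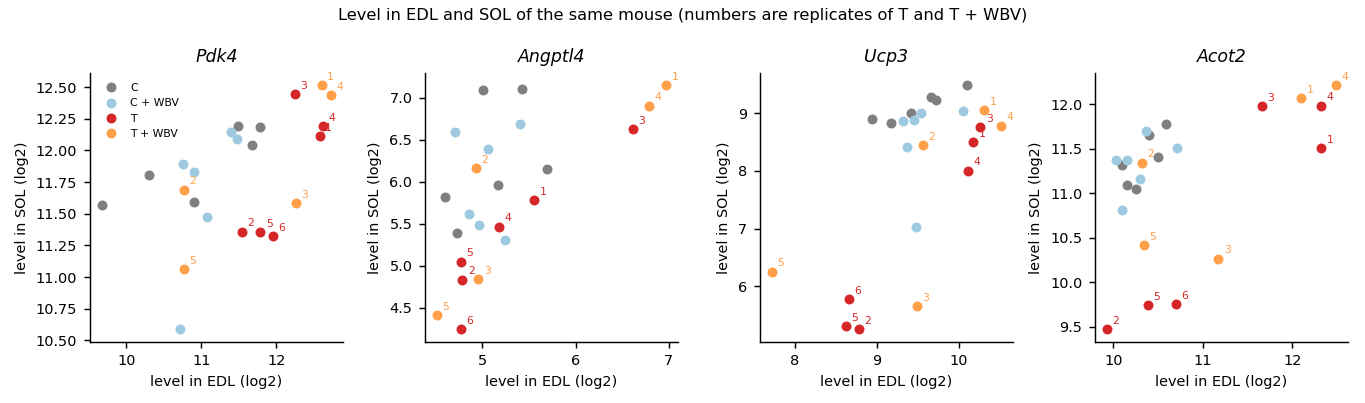
Log2 level in EDL (horizontal) and in SOL (vertical) of the same mouse for Pdk4, Angptl4, Ucp3 and Acot2, with a point per mouse and the replicate number beside T and T + WBV mice. T mice 1, 3 and 4 and T + WBV mice 1 and 4 lie towards the upper right in Ucp3 and Acot2, and T mice 2, 5 and 6 and T + WBV mouse 5 lie lower on both axes, while T + WBV mouse 3 lies low in SOL but not in EDL.

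The spread of the module in T was wider than in C. The SD was higher in T for 27 of 31 members in EDL, 30 in SOL and 27 in HRT, or 87.1%, 96.8% and 87.1%, beside 61.3%, 65.8% and 48.9% of all genes. The median SD over the members was 0.12 in C and 0.39 in T for EDL, 0.17 against 0.53 for SOL, and 0.06 against 0.18 for HRT. T replicate 2 had the lowest value of the T mice in 20 members in EDL and 23 in SOL, and T replicate 3 the highest in 16 in each. In HRT, T replicate 2 was the lowest of the 3 in 27 members and T replicate 1 the highest in 29. These counts rest on members that are measured on the same arrays and are not independent of each other.

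Across the 11 tumour-bearing mice with muscle arrays, the levels of Pdk4, Angptl4 and Ucp3 were set against body mass at day 19, in 6 relations. Values of Ucp3 in SOL and of Angptl4 in EDL fell into separate clusters, so that no correlation over all mice is given for them. Within the 6 mice with the higher Ucp3 in SOL, r was 0.20 (exact permutation p = 0.742, adjusted p = 0.904) and rho 0.14 (exact permutation p = 0.803, adjusted p = 0.803), with r = 0.82 over the 4 mice left once the 2 farthest in body mass were set aside. Within the 8 mice with the lower Angptl4 in EDL, r was -0.10 (exact permutation p = 0.904, adjusted p = 0.904) and rho -0.19 (exact permutation p = 0.665, adjusted p = 0.803), and r was 0.02 over 6 of them. The other clusters held under 6 mice. These 2 relations within clusters were added after seeing the data and adjusted over themselves. In SOL, Angptl4 had Pearson's r = 0.55 (permutation p = 0.0804, adjusted p = 0.241) and Spearman's rho = 0.59 (permutation p = 0.0608, adjusted p = 0.262), with r = 0.63 once the 2 mice with the most unusual body mass, T 3 and T + WBV 2, were set aside, and r = 0.81 within the 6 T mice (exact permutation p = 0.0917). Pdk4 in EDL had r = -0.42 (permutation p = 0.233, adjusted p = 0.466) and rho = -0.21 (permutation p = 0.538, adjusted p = 0.538), and without those 2 mice r was 0.02. Ucp3 in EDL had r = 0.21 (permutation p = 0.565, adjusted p = 0.565) and rho = 0.25 (permutation p = 0.451, adjusted p = 0.538), with r = 0.14 without the 2 mice. Pdk4 in SOL had r = 0.25 (permutation p = 0.479, adjusted p = 0.565) and rho = 0.37 (permutation p = 0.262, adjusted p = 0.524), with r = 0.39 without the 2 mice. None of the 4 relations over all mice and neither within a cluster passed.

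Whether the tumour moved the members differently in the tissues was tested over all arrays with the mouse as a random block. In HRT minus EDL, 0 members were higher (1.79% of all genes) and 2 were lower (1.71%). The tumour effect was lower in HRT for Pnpla2, by an estimate of -0.88 (SE 0.22, adjusted p = 0.00837), and for Echs1, by an estimate of -0.72 (SE 0.15, adjusted p = 0.000904). The call for Pnpla2 ended without any 1 C mouse, without T mouse 1, 2, 5 or 6, and without the mouse block, at an adjusted p of up to 0.091. That for Echs1 ended without T mouse 5, at 0.0101. In SOL minus EDL 0 members were called, beside 0.744% of all genes higher and 1.28% lower. At an unadjusted p under 0.05 in limma there were 16 members, beside 3650 of all 18820 genes. The smallest adjusted p there belonged to Cd36 at -0.57 (0.0338), Ucp3 at -2.13 (0.0388) and Acot2 at -1.53 (0.0392). In HRT minus SOL 0 were called, beside 1.11% and 0.574%, with 3 at an unadjusted p under 0.05, beside 3020 of all 18820 genes.

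In trained mice the tumour effect was read from T + WBV against C + WBV, a comparison that shares no array with T against C. In EDL 6 members were higher (5.27% of all genes) and 1 was lower (6.60%), and these 7 were among the 12 called in T against C. They were Pnpla2 at 0.98, Plin5 at 0.92, Mlycd at 0.72, Eci2 at 0.67, Ppard at 0.56 and Echs1 at 0.38, with Hadh at -0.47 (adjusted p = 0.00937). The calls of Pnpla2 and Eci2 held without any 1 of the mice, that of Ppard ended without T + WBV replicate 1 and that of Echs1 without T + WBV replicate 3 or 5. Those of Plin5 and Mlycd ended without C + WBV replicate 6 or T + WBV replicate 1, 3 or 4, and that of Plin5 also without C + WBV replicate 3. That of Hadh ended without any 1 mouse other than T + WBV replicate 2, at an adjusted p of up to 0.0301. The EDL levels of Pnpla2 were 9.67, 10.07 and 10.18 in C + WBV for lowest, median and highest, and 11.15, 10.20, 11.21, 11.42 and 11.01 in T + WBV replicates 1 to 5. Replicate 2 was thus just above the trained controls and the other 4 were well above them. The EDL levels of Hadh were 10.63, 10.76 and 10.84 in C + WBV and 10.31, 10.58, 10.23, 10.18 and 10.07 in T + WBV replicates 1 to 5, and here too replicate 2 was nearest the controls. In SOL 1 was higher (1.94%) and 0 were lower (1.66%), and this was again Pnpla2, at 0.61 (adjusted p = 0.00292), a call that ended without T + WBV replicate 1 or 4. In HRT 0 were higher (1.01%) and 0 lower (0.478%), with a smallest adjusted p of 0.0578. At an unadjusted p under 0.05 in limma there were 7 members in HRT, beside 3841 of all 18820 genes.

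The estimate had the same sign in both comparisons for 28 of 31 members in EDL, 30 in SOL and 21 in HRT. It was closer to 0 in the trained mice for 25, 23 and 22 of 31. These counts over the 31 members were not set beside all genes. Of the members called in T against C, 10 of 12 in EDL, 5 of 6 in SOL and 5 of 5 in HRT were closer to 0 in the trained mice, and of all genes called so were 90.1%, 92.4% and 90.7%. The share among the members was thus near that among all genes. Both shares cover genes chosen by their calls in T against C, a choice that by itself favours larger estimates there. They are therefore no test of training.

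**Figure D5:**
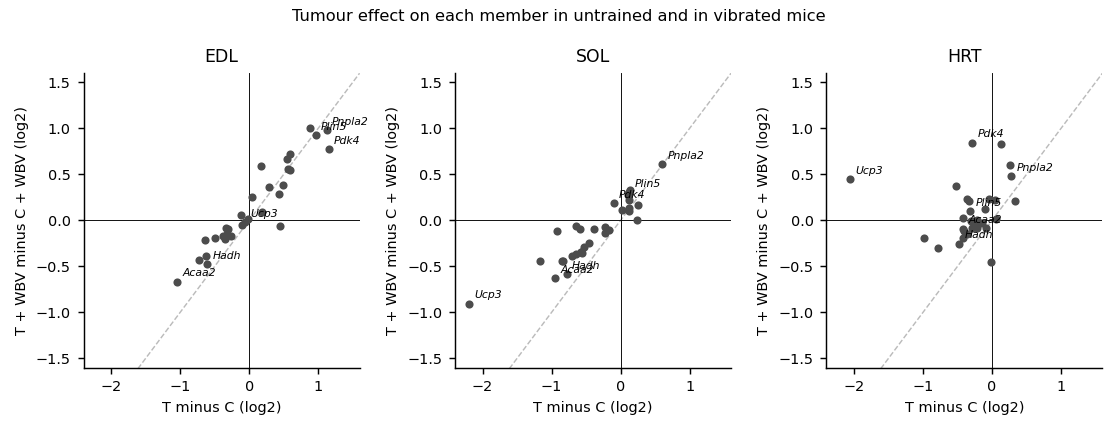
Log2 difference of T against C (horizontal) and of T + WBV against C + WBV (vertical) for the 31 members in EDL, SOL and HRT, with a line where both are equal. In EDL and SOL 28 and 30 members have the same sign on both axes, and in HRT 21.

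Direct tests of training called no member. Training in tumour-bearing mice (T + WBV against T), training in healthy mice (C + WBV against C) and their interaction each had 0 of 31 members called in EDL, SOL and HRT by limma, beside 0% of all genes. At an unadjusted p under 0.05 there were 0 members in EDL and SOL for all of these and in HRT for C + WBV against C. Of all 18820 genes, 596 to 939 were under 0.05 in these comparisons. In HRT there were 13 members for T + WBV against T, beside 1407 of all genes. The HRT interaction had 9 members, beside 1105 of all genes. The members with the smallest p in HRT of T + WBV against T were Ucp3 at 1.85 (SE 0.49, adjusted p = 0.385), Cpt1a at 0.66 (SE 0.19, adjusted p = 0.433) and Angptl4 at 1.02 (SE 0.31, adjusted p = 0.441). The HRT arrays of Ucp3 read 8.77, 7.42 and 7.15 in T + WBV and 7.13, 4.86 and 5.79 in T, so that every trained heart was above the highest untrained one, the lowest of them by a small margin. The mice of the T + WBV hearts, with 1 at 100.9%, had mostly kept more of their starting body mass than those of the T hearts. Training and body mass can therefore not be told apart in this comparison of hearts. The interval of the training effect on Ucp3 in SOL of tumour-bearing mice ran from -0.61 to 2.02, and in EDL from -0.69 to 0.86.

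Other routes of fatty acid and fuel oxidation were followed as lists. Other mitochondrial fatty acid oxidation had 22 measured genes, with 4 rises and 6 falls in EDL, 2 rises and 7 falls in SOL, and 0 rises and 4 falls in HRT. Acss1, which activates acetate, rose by 2.65 in EDL (SE 0.36) and 0.76 in SOL, Acot1 rose by 1.72 in EDL, and Slc22a5, the carnitine importer of the cell membrane, was among the genes that fell, by 0.64 in EDL and 0.65 in SOL. Peroxisomal and omega oxidation had 18, with 1 rise and 5 falls in EDL, 5 falls in SOL and 2 falls in HRT, and Abcd2, a peroxisomal fatty acid transporter, fell by 1.90 in EDL and 1.30 in SOL.

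Of 4 measured ketone body genes, none rose, while 2 fell in EDL, 2 in SOL and 1 in HRT. Oxct1, the enzyme that lets tissue burn ketone bodies, fell in each, by 1.26, 0.92 and 0.47. Fatty acid synthesis had 15 genes, with 1 rise and 2 falls in EDL, 2 falls in SOL, and 1 rise and 2 falls in HRT. These lists too stand beside 10.7% of all genes higher and 11.6% lower in EDL. In SOL the shares were 5.06% and 8.66%, and in HRT 2.70% and 3.04%. Of 17 other mitochondrial genes, taken from the respiratory chain, citrate cycle and import, none rose and 15 fell in EDL, 1 rose and 9 fell in SOL, and 3 fell in HRT, with median differences of -0.59, -0.39 and -0.18, beside -0.02, -0.45 and -0.28 over the members.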

How the data were processed

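Gene expression was measured on 58 Mouse Gene 1.1 ST arrays of EDL, SOL and HRT from 23 mice. The values deposited by the authors are log2 intensities from robust multi-array analysis (RMA), that is, background correction, quantile normalization and 1 summary value per probe set. Its version was not stated in the sources used here. The methods describe a custom gene definition, whereas the deposited table holds 35556 probe sets of the array's own annotation. The raw scans were not used here. Quantile normalization sets the arrays to a like distribution, so a shift of all genes together would not be seen. Array medians ran from 4.52 to 4.60, and the number of arrays limits the precision.

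Probe sets with 1 symbol (21218) were averaged into 18820 genes, 1881 probe sets with several symbols and 12457 without a symbol were left out, and no probe set was filtered on its level. limma 3.58.1 in R 4.3.3 was run per tissue on all 4 groups with eBayes and a trend in the variance prior. Tissue contrasts used all arrays with the mouse as a random block, with a correlation of 0.14. Adjusted p (Benjamini-Hochberg, over every gene) had to be under 0.01 for a call. Body mass relations used two-sided permutation tests with 100000 resamples in scipy 1.17.1 under Python 3.11.15. The fit was tested on simulated data with known changes, where each gene was drawn on its own with the same SD in every group. This check does not cover the wider spread of the members in T. p-values measure the spread between single mice.

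EDL and SOL with the same group and replicate number came from 1 mouse, while hearts carry their own numbers. The numbers do not mark matched mice between groups, and only 3 of 33 same-numbered pairs in EDL, 5 of 33 in SOL and 0 of 18 in HRT had deviations that correlated above 0.1. The members and lists were chosen with earlier results of these data known. Named were the members with the 4 largest rises and 4 largest falls among those called in T against C in each tissue, Ppara and Ppard, and the 3 largest calls for each pair of tissues in C. The rule for each other list was the 2 largest rises and falls, and only some of these are given. No fall is named from the lists of uptake and activation, fatty acid synthesis and other mitochondrial genes. Further members were named by role. Promoter windows came from RefSeq. Proteins were not used here, and the planned relation of Cpt1b to body mass was not analysed here, as Cpt1b had no probe set of its own.

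The alternatives tried were an untrended variance prior, a fit of just the groups compared, a fit of all arrays, a second quantile normalization within the tissue, a looser threshold, a block for the replicate number, a covariate for the suffix of the description, other probe set rules, and leaving out each replicate in turn. A fit with a spread of its own for each group was chosen after seeing the data, as were the body mass relations within clusters, split at the largest gap and tested by exact permutation.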

Additional observations from a re-analysis of the deposited data

Results flagged for a closer look

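Of 128 groups tested for an array far from the rest, 6 had one, and chance alone gives about 1 in 20. The value given is the gap to the next array as a share of the group's range. In EDL, Pnpla2 of C + WBV replicate 6 stood apart at 9.67 (0.704), and Acaa2 of the same muscle at 9.75 (0.64). Also in EDL, T replicate 3 was lowest at 10.60 for Pnpla2 (0.692) and at 7.69 for Ppard (0.676), and T + WBV replicate 3 was highest at 11.84 for Lpl (0.793). In SOL, C + WBV replicate 3 was lowest at 7.03 for Ucp3 (0.687).

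The tumour effect differed between HRT and EDL, by the test of the difference itself, for Pnpla2 at -0.877 and for Echs1 at -0.723 on the log2 scale. The call for Pnpla2 ended in 11 of 17 alternative runs, and that for Echs1 in 1 of 17.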

How the results depend on the processing

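Of 42 called differences of members given in the text, 23 kept direction and call in every alternative run, 19 lost the call in at least 1, and 0 reversed. Members called in T against C numbered 9 to 16 in EDL when 1 replicate was left out, 3 to 11 in SOL (11 without T replicate 3, 10 without T replicate 4, 3 without C replicate 1, 2, 3, 4 or 6 or T replicate 2, 5 or 6) and 0 to 11 in HRT (11 without T replicate 1, otherwise 0). At an adjusted p under 0.05 they numbered 11 in SOL and 12 in HRT, in the fit of all arrays 11 and 0, and without a trend 0 in HRT. In T + WBV against C + WBV the counts without 1 replicate ran from 3 to 9 in EDL (3 without T + WBV replicate 1 or 3, 4 without C + WBV replicate 6 or T + WBV replicate 4), 0 to 1 in SOL (0 without T + WBV replicate 1 or 4) and 0 to 4 in HRT (4 without T + WBV replicate 2), and in SOL 2 were called in the fit of all arrays and 0 with only the groups compared. For the tumour effect in HRT minus EDL the range was 0 to 3 (0 without T replicate 5), with 5 at an adjusted p under 0.05 and 1 without the mouse block, and for SOL minus EDL 3 were called at 0.05. In C, HRT against SOL had 8 to 12 members without 1 replicate, SOL against EDL 13 to 16 and HRT against EDL 21 to 23. With only the C arrays, HRT against SOL had 23, of which 20 were higher in HRT and 3 were lower. Counts of 0 for training stayed 0 in every alternative run. The estimate for Ppara in HRT ran from -0.091 without C replicate 1 to 0.077 without C replicate 2, and was 0.067 without T replicate 2, and the correlation of Pdk4 in EDL with body mass turned to 0.13 within the T mice and 0.019 without T 3 and T + WBV 2, whose body mass was least like the rest. With the replicate number as a block, which pairs no mice, 14, 4 and 6 members were called in T against C in EDL, SOL and HRT, and Acaa2 and Acadm in SOL lost their calls, as did Hadh in EDL in T + WBV against C + WBV. With a spread of its own for each group, chosen after seeing the data, 13, 8 and 7 were called. The cause of these changes was not tested.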
